A study of Mus musculus with 12 samples.

Results

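The transcripts of the D cyclins (Ccnd1, Ccnd2 and Ccnd3), the E cyclins (Ccne1 and Ccne2) and their partner kinases (Cdk2, Cdk4 and Cdk6) were followed across KP1 cells, a mouse line labelled as lung adenocarcinoma (LUAD), with and without NRF2 overexpression and romidepsin. The 8 genes were taken by symbol from a table of 35013 genes, and all 8 passed the filter on low counts that left 13502 genes. The 4 groups held 3 libraries each: NRF2-overexpressing cells with romidepsin, empty vector (EV) cells with romidepsin, NRF2-overexpressing cells with DMSO, and EV cells with DMSO. Romidepsin, which inhibits class I histone deacetylases, was given at 5 nM. It or its solvent DMSO acted for 16 h in RPMI medium on cells that had been kept in DMEM. NRF2 is a transcription factor that switches on genes of antioxidant defence and detoxification. All groups carry the same cell line label, and neither the vector nor the promoter behind NRF2 overexpression is named in the labels. Nor do the labels say whether the replicates came from separate cultures or independently made lines. The p-values below therefore set each difference against only the spread between these libraries, which may be technical.

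D cyclins bind and activate CDK4 and CDK6 as cells respond to growth signals in G1. These kinases begin to phosphorylate the retinoblastoma protein and its relatives, which frees E2F factors to transcribe the genes of S phase. The E cyclins, themselves E2F targets, then activate CDK2, which completes that phosphorylation and starts DNA replication. The proteins of the CIP/KIP and INK4 families inhibit these kinases, and ubiquitin ligases limit how long the cyclins last. Cyclin D1 is often abundant in lung tumours driven by RAS signalling.

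The libraries held 16842824 to 28003010 estimated counts. The smallest count of any of the 8 genes was 186, for Ccne2 in replicate 3 of NRF2 cells with romidepsin. Nfe2l2, which encodes NRF2, averaged 349 ± 13.8 CPM in NRF2 cells and 96.3 ± 2.90 CPM in EV cells with romidepsin, and 305 ± 40.7 CPM in NRF2 cells and 102 ± 1.37 CPM in EV cells with DMSO (SD, n = 3 each). CPM is the count divided by the library total, after TMM adjustment of that total, and put on a common scale. Replicate 3 of NRF2 cells with DMSO stood apart from the rest, at a root mean square log2 distance of 0.465 from the mean of the other libraries of its group, against 0.255 to 0.350 in the other 11 libraries. Calls of the 8 genes that it changes are given with and without it. Of the cell type markers, 9 epithelial genes summed to 9420 to 9919 CPM in NRF2 cells and 6358 to 6503 CPM in EV cells with romidepsin. With DMSO they summed to 5476 to 6187 CPM in NRF2 cells and 3748 to 3785 CPM in EV cells. Most of each sum came from the keratin genes Krt8 and Krt18. Of the 8 that passed the filter on low counts, 7 rose with romidepsin in each line (edgeR, adjusted p under 0.05). Cdh1 fell (log2 -0.88 in NRF2 and -0.52 in EV cells). The 8 lung alveolar markers summed to at most 2.25 CPM in any library, with Sftpa1, a surfactant protein gene, at 0 in all 12 libraries, so the labelled lung origin was not visible in them. The 10 mesenchymal markers summed to 5268 to 5630 CPM in NRF2 cells and 6163 to 6240 CPM in EV cells with romidepsin. With DMSO they summed to 3060 to 3357 CPM in NRF2 cells and 3536 to 3680 CPM in EV cells. Nearly all of each sum was Vim. Of the 7 that passed the filter, 4 rose and 3 fell with romidepsin in NRF2 cells, and 3 rose and 3 fell in EV cells. Those that fell were Zeb1, Zeb2 and Cdh2 (log2 -0.56, -1.51 and -1.41 in NRF2 cells, -0.34, -1.59 and -1.26 in EV cells). The shares of all genes called are given below. The 5 endothelial markers summed to at most 10.4 CPM, and the leukocyte gene Ptprc averaged at most 0.549 CPM in a group. The 8 blood cell markers summed to 70.8 to 75.2 CPM in NRF2 cells and 50.3 to 55.9 CPM in EV cells with romidepsin, against 4.38 to 4.91 CPM and 2.88 to 4.50 CPM in NRF2 and EV cells with DMSO, with most of it from Cd68. The part of these marker shifts in the results below was not tested.

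With romidepsin, 6 of the 8 transcripts fell, Ccnd3 rose and Ccne1 did not pass the test, in NRF2 cells and in EV cells alike. The genes that fell were Ccnd1, Ccnd2, Ccne2, Cdk2, Cdk4 and Cdk6, and Ccnd1 had the largest change in both lines. A call was common among all genes tested (edgeR, adjusted p under 0.05): 79.8% were called in NRF2 cells, 39.3% lower and 40.5% higher. In EV cells 76.5% were called, 37.4% lower and 39.1% higher. The median log2 fold change of the 8 genes was -1.06 in NRF2 cells and -0.84 in EV cells, while that of all genes was 0.01 in each line. Among the 8 genes the romidepsin and DMSO libraries overlapped for Ccne1 in each line and for no other. Of all genes, 79.8% in NRF2 cells and 81.0% in EV cells had groups without overlap. In bulk RNA, less RNA per cell and fewer cells that express a gene cannot be told apart.

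**Figure D1:**
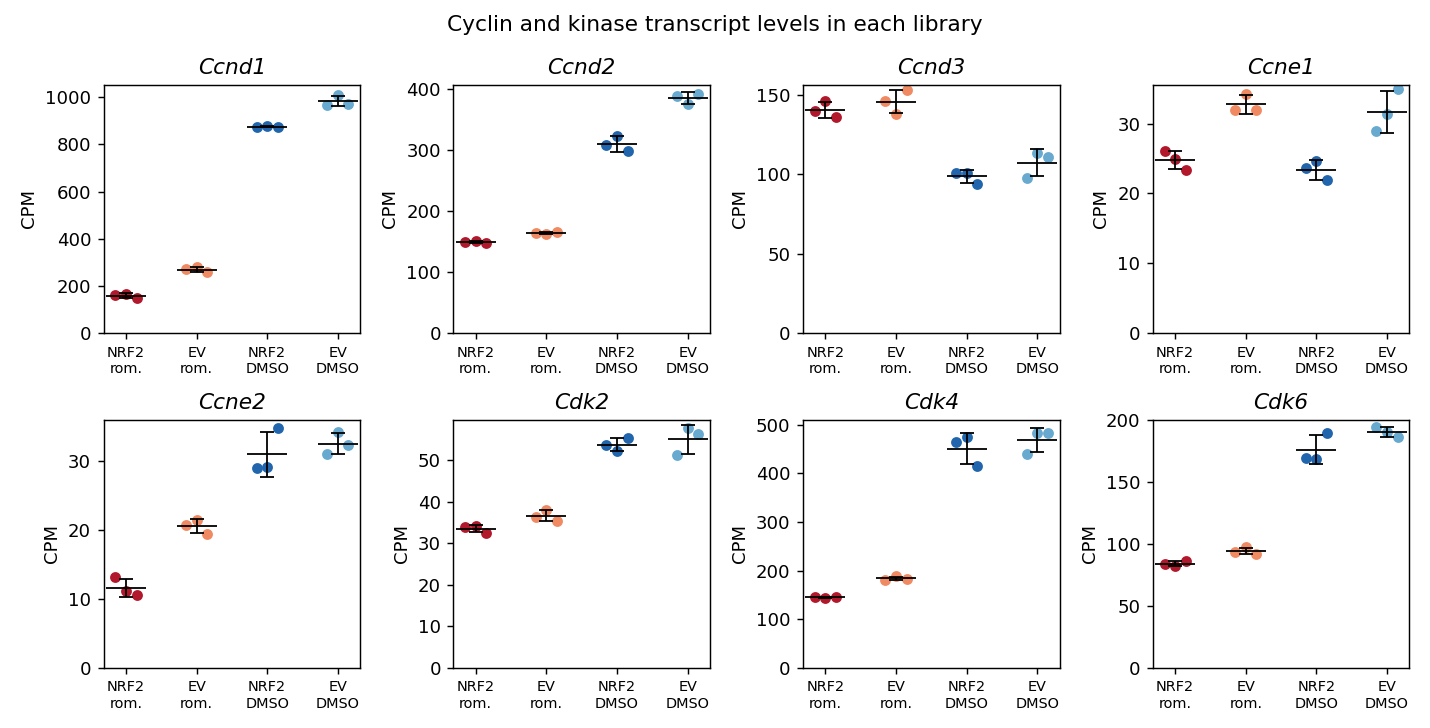
Level of each transcript (CPM, axis from 0) in the 12 libraries, by group: points are libraries, the long bar is the mean and the whiskers are the SD of 3 libraries ("rom." is romidepsin). Romidepsin points lie below DMSO points in 6 panels, above them for Ccnd3 and among them for Ccne1, where NRF2 points lie below EV points in both treatments.

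Ccnd1 encodes cyclin D1, the D cyclin most responsive to mitogens (ENSMUSG00000070348.5; GRCm38 chromosome 7, 144929931 to 144939925, minus strand). It measured 162, 166 and 149 CPM in NRF2 cells with romidepsin and 270, 278 and 258 CPM in EV cells with romidepsin. With DMSO it measured 874, 877 and 873 CPM in NRF2 cells and 968, 1009 and 973 CPM in EV cells. No group overlapped another. Romidepsin lowered it 5.51-fold in NRF2 cells (log2 -2.46 ± 0.05, SE; edgeR adjusted p = 4.4e-17) and 3.66-fold in EV cells (log2 -1.87 ± 0.05; edgeR adjusted p = 1.6e-15).

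Ccnd2 encodes cyclin D2, a D cyclin that partly stands in for cyclin D1 in other tissues (ENSMUSG00000000184.12; chromosome 6, 127125162 to 127152193, minus strand). Its levels were 149, 151 and 147 CPM in NRF2 cells and 164, 163 and 165 CPM in EV cells with romidepsin. The DMSO values were 308, 323 and 298 CPM in NRF2 cells and 389, 375 and 392 CPM in EV cells. The 4 groups were again separate, in the same order as for Ccnd1. The fall with romidepsin was 2.08-fold in NRF2 cells (log2 -1.06 ± 0.04; edgeR adjusted p = 1.4e-13) and 2.35-fold in EV cells (log2 -1.23 ± 0.04; edgeR adjusted p = 3.4e-14).

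Ccnd3, which encodes cyclin D3, was the one D cyclin that rose (ENSMUSG00000034165.16; chromosome 17, 47505051 to 47599691, plus strand). It had 140, 146 and 136 CPM in NRF2 cells and 146, 138 and 153 CPM in EV cells with romidepsin. In DMSO libraries it had 101, 101 and 94.0 CPM in NRF2 cells and 97.3, 113 and 111 CPM in EV cells. All 6 romidepsin libraries lay above all 6 DMSO libraries, and the lines overlapped within each treatment. The rise was 1.42-fold in NRF2 cells (log2 0.51 ± 0.06; edgeR adjusted p = 3.2e-07) and 1.36-fold in EV cells (log2 0.44 ± 0.06; edgeR adjusted p = 2.1e-06).

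As the single member that rose, Ccnd3 is shown with the sequence around its starts, 250 bases before to 50 bases after each, from RefSeq on GRCm38.p6, plus strand, with GC boxes (GGGCGG on either strand, a site bound by SP1 family factors) in capitals. Both windows held 2 GC boxes, and 35.7% of the 32851 promoter windows of the genome table held at least 1.
Ccnd3 upstream start, chr17:47504801-47505100: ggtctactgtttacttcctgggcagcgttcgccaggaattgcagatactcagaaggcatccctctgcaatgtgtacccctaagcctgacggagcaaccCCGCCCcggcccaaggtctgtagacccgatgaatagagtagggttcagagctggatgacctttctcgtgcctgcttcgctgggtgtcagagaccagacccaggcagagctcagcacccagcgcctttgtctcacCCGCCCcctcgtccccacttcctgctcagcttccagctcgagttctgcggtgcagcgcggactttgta
Ccnd3 downstream start, chr17:47593217-47593516: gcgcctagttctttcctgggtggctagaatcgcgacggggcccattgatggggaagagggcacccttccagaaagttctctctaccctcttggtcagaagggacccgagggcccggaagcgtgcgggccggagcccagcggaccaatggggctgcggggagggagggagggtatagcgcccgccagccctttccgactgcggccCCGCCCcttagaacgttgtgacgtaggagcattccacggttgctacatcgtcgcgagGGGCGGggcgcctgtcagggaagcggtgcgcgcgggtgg
The count table sums over transcripts of a gene, so it does not tell which start the rise came from. RefSeq windows were at hand for 5 of the 8 genes, Ccnd3, Ccne1, Cdk2, Cdk4 and Cdk6.

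The make-up of the D cyclins therefore shifted within each library. The Ccnd1 to Ccnd3 count ratio, on the log2 scale, was 0.21, 0.19 and 0.13 in NRF2 cells and 0.88, 1.01 and 0.76 in EV cells with romidepsin. With DMSO it was 3.11, 3.12 and 3.22 in NRF2 cells and 3.31, 3.15 and 3.13 in EV cells. The counts of these transcripts were thus near equal in NRF2 cells with romidepsin and far apart with DMSO. Averaged over the lines, the romidepsin difference was -2.64 log2 units for this ratio, -1.02 for Ccnd1 to Ccnd2 and -1.62 for Ccnd2 to Ccnd3. Each gave p = 0.005 in an exact permutation test within lines (two-sided), the smallest that 400 arrangements allow, and an adjusted p of 0.01 over 10 tests. Such ratios are taken within a library and do not depend on scaling between libraries.

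Per kilobase of exons the 3 D cyclins summed to 65.6 ± 2.57 CPM per kb in NRF2 cells and 91.1 ± 1.24 in EV cells with romidepsin, against 230 ± 2.15 in NRF2 cells and 262 ± 4.58 in EV cells with DMSO (SD, n = 3). Ccnd1 made up 51.4 ± 0.892% of that sum in NRF2 cells and 62.6 ± 1.54% in EV cells with romidepsin, against 80.8 ± 0.586% in NRF2 cells and 79.7 ± 0.519% in EV cells with DMSO. Ccnd3 made up 24.4 ± 0.279% and 18.2 ± 1.14% in NRF2 and EV cells with romidepsin, against 4.89 ± 0.171% and 4.66 ± 0.313% with DMSO. These shares rest on the length taken for each gene. With the longest protein-coding transcript in place of all exons, Ccnd1 held 32% in NRF2 cells and 43.1% in EV cells with romidepsin, against 71% and 70.2% with DMSO. In NRF2 cells with romidepsin Ccnd3, at 66.5 ± 2.32 CPM per kb, then stood above Ccnd1, at 42.5 ± 2.36.

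The E cyclins divided. Ccne1, which encodes cyclin E1 (ENSMUSG00000002068.16; chromosome 7, 38097984 to 38107534, minus strand), measured 26.1, 24.9 and 23.4 CPM in NRF2 cells and 32.0, 34.3 and 32.0 CPM in EV cells with romidepsin. The DMSO values were 23.6, 24.7 and 21.9 CPM in NRF2 cells and 28.9, 31.4 and 34.9 CPM in EV cells. The treatments overlapped in each line, and the NRF2 libraries lay below the EV libraries in each treatment. The romidepsin difference was 0.08 on the log2 scale in NRF2 cells (95% interval -0.08 to 0.24; edgeR adjusted p = 0.34) and 0.04 in EV cells (-0.11 to 0.19; edgeR adjusted p = 0.63). Scaling by library size alone moved the median of all genes to 0.15 in NRF2 cells and 0.13 in EV cells. Ccne1 was then called higher, at 0.22 in NRF2 cells (edgeR adjusted p = 0.010) and 0.16 in EV cells (edgeR adjusted p = 0.044), close to that median. Under upper-quartile factors, with the median at 0.12 in each line, it was called in NRF2 cells alone (0.19; edgeR adjusted p = 0.025).

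Ccne1 is shown as the member without a called romidepsin change, with its GC boxes in capitals (RefSeq, GRCm38.p6, minus strand).
Ccne1, chr7:38107441-38107740: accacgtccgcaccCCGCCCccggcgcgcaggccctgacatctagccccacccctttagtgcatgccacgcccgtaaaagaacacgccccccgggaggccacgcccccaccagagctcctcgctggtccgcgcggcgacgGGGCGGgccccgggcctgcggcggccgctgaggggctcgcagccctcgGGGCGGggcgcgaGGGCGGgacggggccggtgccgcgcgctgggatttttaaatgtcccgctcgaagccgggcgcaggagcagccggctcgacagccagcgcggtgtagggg
It held 4 GC boxes, and 5.49% of all windows held 4 or more. No match was found to the E2F letters searched (TTTGGCGC, TTTCGCGC, TTTCCCGC or TTTGCCGC, on either strand), which 2.26% of all windows held.

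Ccne2, which encodes cyclin E2 (ENSMUSG00000028212.16; chromosome 4, 11191351 to 11204779, plus strand), measured 13.1, 11.1 and 10.6 CPM in NRF2 cells and 20.7, 21.4 and 19.4 CPM in EV cells with romidepsin. In DMSO libraries it had 28.9, 29.1 and 34.7 CPM in NRF2 cells and 31.0, 34.1 and 32.3 CPM in EV cells. The romidepsin groups lay below the DMSO groups and apart from each other, while the DMSO groups overlapped. It fell 2.64-fold in NRF2 cells (log2 -1.40 ± 0.09; edgeR adjusted p = 1.1e-10) and 1.59-fold in EV cells (log2 -0.66 ± 0.09; edgeR adjusted p = 1.4e-06). The Ccne1 to Ccne2 count ratio lay at 0.99 to 1.16 log2 units in NRF2 cells and 0.63 to 0.72 in EV cells with romidepsin. With DMSO it lay at -0.66 to -0.24 in NRF2 cells and -0.12 to 0.11 in EV cells. Averaged over the lines the ratio was 1.10 log2 units higher with romidepsin (exact permutation test, p = 0.005, adjusted p = 0.01).

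**Figure D2:**
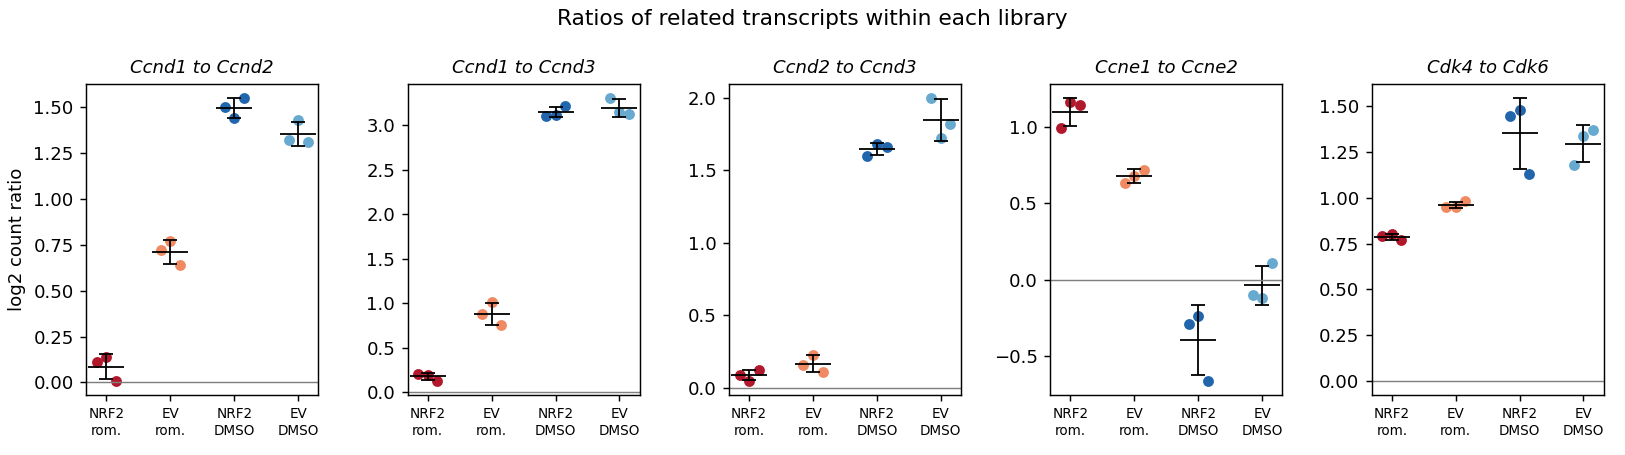
Log2 ratio of the estimated counts of related transcripts in each of the 12 libraries, by group (points, libraries; long bar, mean; whiskers, SD of 3 libraries; grey line, equal counts). The ratios of Ccnd1 to Ccnd2 and Ccnd3, of Ccnd2 to Ccnd3 and of Cdk4 to Cdk6 are lower with romidepsin, and that of Ccne1 to Ccne2 is higher.

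The 3 kinases fell to different extents. Cdk4, the partner of the D cyclins that was the more abundant of the pair per kilobase (ENSMUSG00000006728.12; chromosome 10, 127063534 to 127067920, plus strand), measured 146, 144 and 146 CPM in NRF2 cells and 181, 188 and 182 CPM in EV cells with romidepsin. The DMSO values were 464, 474 and 415 CPM in NRF2 cells and 440, 483 and 482 CPM in EV cells. The romidepsin groups were apart from each other and from both DMSO groups, which overlapped. Romidepsin lowered Cdk4 3.11-fold in NRF2 cells (log2 -1.64 ± 0.05; edgeR adjusted p = 1.1e-14) and 2.55-fold in EV cells (log2 -1.35 ± 0.05; edgeR adjusted p = 1.9e-13).

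Cdk6, the other D cyclin kinase (ENSMUSG00000040274.11; chromosome 5, 3341485 to 3531008, plus strand), had 84.1, 82.6 and 86.1 CPM in NRF2 cells and 93.9, 97.5 and 92.3 CPM in EV cells with romidepsin. In DMSO libraries it had 170, 169 and 190 CPM in NRF2 cells and 195, 191 and 187 CPM in EV cells. Its romidepsin libraries were all far below its DMSO libraries, and the lines overlapped with DMSO. The fall was 2.09-fold in NRF2 cells (log2 -1.07 ± 0.05; edgeR adjusted p = 1.4e-12) and 2.02-fold in EV cells (log2 -1.01 ± 0.05; edgeR adjusted p = 4.1e-12). The log2 Cdk4 to Cdk6 count ratio was 0.77 to 0.80 in NRF2 cells and 0.95 to 0.98 in EV cells with romidepsin, against 1.13 to 1.48 in NRF2 cells and 1.18 to 1.37 in EV cells with DMSO. The average romidepsin difference was -0.45 log2 units (exact permutation test, p = 0.005, adjusted p = 0.01).

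Cdk2, the partner of the E cyclins (ENSMUSG00000025358.16; chromosome 10, 128697939 to 128705031, minus strand), measured 33.8, 34.1 and 32.5 CPM in NRF2 cells and 36.2, 38.0 and 35.4 CPM in EV cells with romidepsin. The DMSO values were 53.5, 52.1 and 55.3 CPM in NRF2 cells and 51.1, 57.6 and 56.2 CPM in EV cells. It fell 1.60-fold in NRF2 cells (log2 -0.68 ± 0.06; edgeR adjusted p = 3.3e-09) and 1.50-fold in EV cells (log2 -0.59 ± 0.06; edgeR adjusted p = 2.6e-08). This was the smallest fall of the 3 kinases in both lines, and the DMSO groups overlapped.

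The windows of Cdk4 and Cdk2 are shown because they differ in the motifs they hold. The motif in capitals was chosen for each gene among those searched. A link between motifs and the size of the falls was not tested. Capitals mark E-boxes (CACGTG, a site of MYC and related factors) in Cdk4 and the E2F match in Cdk2 (RefSeq, GRCm38.p6, Cdk4 plus strand, Cdk2 minus strand).
Cdk4, chr10:127063285-127063584: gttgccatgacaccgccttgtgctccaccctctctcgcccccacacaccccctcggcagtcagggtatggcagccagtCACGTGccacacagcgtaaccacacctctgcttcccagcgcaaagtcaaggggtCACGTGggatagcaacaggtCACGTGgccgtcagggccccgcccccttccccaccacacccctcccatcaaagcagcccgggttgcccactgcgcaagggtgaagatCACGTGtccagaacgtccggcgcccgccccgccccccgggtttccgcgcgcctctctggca
Cdk2, chr10:128705002-128705301: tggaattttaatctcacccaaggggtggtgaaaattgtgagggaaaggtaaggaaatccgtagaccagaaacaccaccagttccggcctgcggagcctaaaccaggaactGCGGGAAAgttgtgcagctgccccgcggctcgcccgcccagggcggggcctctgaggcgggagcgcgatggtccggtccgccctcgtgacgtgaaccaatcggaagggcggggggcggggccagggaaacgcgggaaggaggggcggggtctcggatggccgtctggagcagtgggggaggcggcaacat
Cdk4 held 4 E-boxes, which begin 172, 118, 98 and 11 bases before its start; 7.15% of all windows held at least 1 E-box, and 8 of 32851 windows (0.0244%) held 4 or more. GC boxes numbered 3 in Cdk4 and 6 in Cdk2. Cdk2 held no E-box and 1 E2F match, which begins 140 bases before its start, and Cdk6 held 1 E-box, 220 bases before its start. Both strands were also searched for the core of the antioxidant response element that NRF2 binds, TGACNNNGC. It was found at 2 places in Cdk4 and at 1 in the upstream window of Ccnd3, and 12.4% of all windows held it. Of the matches given here, only 2 GC boxes of Cdk4, both after its start, overlapped, by 1 base. A match is a run of letters, not a measured binding site.

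Set in order by CPM per kilobase of exons, Cdk4 and Ccnd1 led in every group. In NRF2 cells with romidepsin Cdk4 came first at 44.7 ± 0.381 CPM per kb and Ccnd1 next at 33.7 ± 1.87, and in EV cells with romidepsin they overlapped, at 56.5 ± 1.21 for Cdk4 and 57 ± 2.16 for Ccnd1. With DMSO Ccnd1 came first, at 186 ± 0.406 CPM per kb in NRF2 cells and 209 ± 4.69 in EV cells, above Cdk4 at 139 ± 9.65 and 144 ± 7.48 (SD, n = 3). Ccnd2 and Ccnd3 overlapped with romidepsin in both lines, at 15.9 ± 0.168 and 16 ± 0.558 CPM per kb in NRF2 cells. At the low end, Ccne2 was last with romidepsin, where it overlapped with Cdk2 in EV cells. Cdk2 was last with DMSO, where it overlapped with its neighbour in both lines. This order too rests on gene length, and with the longest protein-coding transcript 2 to 4 of the 8 genes kept their place in a group. Cdk4 then led in both romidepsin groups, at 70.8 ± 0.602 in NRF2 cells and 89.5 ± 1.91 in EV cells, and Ccnd1 in both DMSO groups.

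With DMSO, 3 of the 8 transcripts, Ccnd1, Ccnd2 and Ccne1, were lower in NRF2 than in EV cells and none was higher. Among all genes 36.3% were called, 19.3% higher and 16.9% lower, so a count of 3 in 8 called is near the background. The groups did not overlap for the same 3 genes, while 42.5% of all genes had groups without overlap. The median log2 difference of the 8 genes was -0.12, against -0.01 over all genes. Ccne1 was 1.36-fold lower in NRF2 than in EV cells (log2 -0.44 ± 0.07; edgeR adjusted p = 1.6e-04), Ccnd2 1.24-fold lower (log2 -0.31 ± 0.04; edgeR adjusted p = 1.0e-05) and Ccnd1 1.12-fold lower (log2 -0.17 ± 0.05; edgeR adjusted p = 0.0089). The call for Ccnd1 was lost when the 2 DMSO groups were fitted alone (edgeR adjusted p = 0.053). The other 5 genes did not pass the test, with intervals of -0.24 to 0.01 for Ccnd3, -0.25 to 0.10 for Ccne2, -0.15 to 0.08 for Cdk2, -0.16 to 0.05 for Cdk4 and -0.22 to -0.01 for Cdk6. Ccnd3, at a log2 difference of -0.12 (edgeR adjusted p = 0.14), was called without replicate 1 of EV cells with DMSO (log2 -0.18; edgeR adjusted p = 0.019), and its value was -0.08 without replicate 2 of the same cells or replicate 3 of NRF2 cells with DMSO. Scaling by library size alone also called it (log2 -0.15; edgeR adjusted p = 0.046), as it did Cdk6 (log2 -0.15; edgeR adjusted p = 0.022). In replicate 3 of these NRF2 cells Cdk6 and Ccne2 were higher and Cdk4 was lower than in replicates 1 and 2. When it was left out, Cdk6 was called as well (log2 -0.17; edgeR adjusted p = 0.0012) and the value for Cdk4 was 0.01. That for Ccne2 was then -0.16, against -0.08 with it, and was not called (edgeR adjusted p = 0.068).

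In NRF2 cells with romidepsin 6 of the 8 genes were lower than in EV cells with romidepsin, none was higher, and Ccnd3 and Cdk2 did not pass the test. Among all genes 45.4% were called, 22.4% lower and 23.0% higher. The groups overlapped for Ccnd3 and for none of the other 7 genes, and 61.2% of all genes had groups without overlap. The median log2 difference was -0.25, against -0.00 over all genes. Ccne2 was 1.76-fold lower (log2 -0.82 ± 0.09; edgeR adjusted p = 2.0e-06), Ccnd1 1.69-fold lower (log2 -0.76 ± 0.05; edgeR adjusted p = 2.7e-09), Ccne1 1.32-fold lower (log2 -0.40 ± 0.07; edgeR adjusted p = 2.7e-04) and Cdk4 1.26-fold lower (log2 -0.34 ± 0.05; edgeR adjusted p = 5.3e-05). The differences of Ccnd2 (log2 -0.13; edgeR adjusted p = 0.014) and Cdk6 (log2 -0.17; edgeR adjusted p = 0.012) were smaller. That of Cdk6 did not pass without replicate 2 of NRF2 cells with romidepsin (edgeR adjusted p = 0.053) or replicate 2 of EV cells with romidepsin (edgeR adjusted p = 0.062). Ccnd3 had an interval of -0.17 to 0.07 and Cdk2 one of -0.25 to -0.01. Cdk2, at -0.13, was called lower by library-size scaling (edgeR adjusted p = 0.045), with the 2 romidepsin groups fitted alone (edgeR adjusted p = 0.033) and when replicate 3 of the DMSO-treated NRF2 cells was left out (log2 -0.14; edgeR adjusted p = 0.027).

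**Figure D3:**
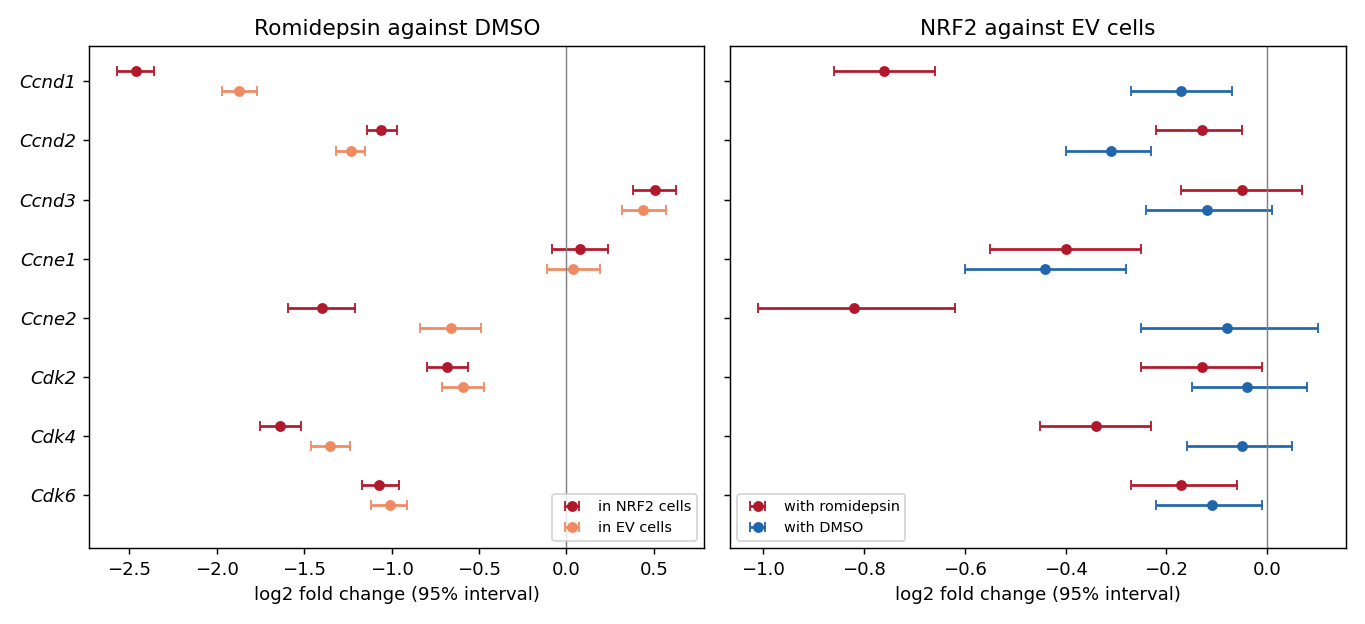
Log2 fold changes with 95% intervals from the edgeR fit, for romidepsin against DMSO in NRF2 and EV cells (left) and for NRF2 against EV cells with romidepsin and with DMSO (right; the horizontal scales differ). The values for NRF2 and EV cells lie farthest apart on the left for Ccnd1 and Ccne2, and NRF2 cells with romidepsin are lowest against EV cells for the same genes on the right.

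The romidepsin response itself differed between the lines for 4 of the 8 genes by the interaction term of the fit, against 15.8% of all genes (10.2% with a lower and 5.53% with a higher response in NRF2 cells). Ccne2 fell further in NRF2 cells by 0.74 ± 0.12 on the log2 scale (edgeR adjusted p = 6.4e-04), Ccnd1 fell further by 0.59 ± 0.07 (edgeR adjusted p = 1.9e-05) and Cdk4 fell further by 0.28 ± 0.07 (edgeR adjusted p = 0.014). Ccnd2 fell less in NRF2 cells, with a difference of 0.18 ± 0.06 (edgeR adjusted p = 0.045), a call that was lost in 11 of the 12 fits that each left out a library. For Ccnd3, Ccne1, Cdk2 and Cdk6 the intervals of the difference were -0.11 to 0.24, -0.18 to 0.26, -0.25 to 0.08 and -0.20 to 0.10. When replicate 3 of NRF2 cells with DMSO was left out, the differences were -0.67 for Ccne2, -0.61 for Ccnd1 and -0.36 for Cdk4, each still called, and 0.13 for Ccnd2 (edgeR adjusted p = 0.052).

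Averaged over the treatments, the log2 difference between NRF2 and EV cells in the Ccnd1 to Ccnd3 count ratio was -0.38 (exact permutation test, p = 0.025, adjusted p = 0.036). That in the Ccnd2 to Ccnd3 ratio was -0.14 (exact permutation test, p = 0.01, adjusted p = 0.017). The Ccnd1 to Ccnd3 ratio averaged 0.17 in NRF2 cells and 0.88 in EV cells with romidepsin, and 3.15 in NRF2 cells and 3.20 in EV cells with DMSO, where the lines overlapped. Leaving out a library of either treatment allows fewer arrangements. Without some of the DMSO libraries calls were lost at nearly the same size, and the cause was not tested. The Ccnd1 to Ccnd3 difference was -0.37, -0.37 and -0.35 without replicate 1 or 2 of NRF2 cells or replicate 1 of EV cells (exact permutation test, adjusted p = 0.057, 0.057 and 0.079). The Ccnd2 to Ccnd3 difference was -0.13 and -0.15 without replicate 1 or 2 of NRF2 cells (exact permutation test, adjusted p = 0.057 and 0.05). The Ccnd1 to Ccnd2 ratio averaged 0.09 in NRF2 cells and 0.71 in EV cells with romidepsin, and 1.50 in NRF2 cells and 1.35 in EV cells with DMSO. The lines thus stood in opposite order in the treatments, and the average difference did not pass the test (exact permutation test, adjusted p = 0.12). Those of Ccne1 to Ccne2 and of Cdk4 to Cdk6 did not pass either (exact permutation test, adjusted p = 0.87 and 0.47). Their lines also stood in opposite order, so the average cannot show a difference within a treatment. Ccne1 to Ccne2 averaged 1.10 in NRF2 and 0.68 in EV cells with romidepsin, and -0.39 and -0.04 with DMSO. The lines were separate in both treatments. Cdk4 to Cdk6 averaged 0.79 and 0.96 with romidepsin, without overlap, and 1.35 and 1.29 with DMSO, where the lines overlapped.

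Other genes of the pathway were described by list. Each count of romidepsin changes below stands against 79.8% of all genes called in NRF2 cells (39.3% lower, 40.5% higher). In EV cells the share was 76.5% (37.4% lower, 39.1% higher). Counts by the interaction term stand against 10.2% of all genes with a lower and 5.53% with a higher response in NRF2 cells. Of 13 genes of the G1/S transition that E2F factors are known to transcribe, all 13 fell with romidepsin in both lines. Their median log2 change was -1.53 in NRF2 cells and -1.16 in EV cells, against 0.01 over all genes, and 12 fell further in NRF2 cells by the interaction term. Rrm2, the small subunit of ribonucleotide reductase, fell by 2.58 ± 0.07 on the log2 scale in NRF2 cells (edgeR adjusted p = 7.8e-16) and by 1.38 ± 0.06 in EV cells (edgeR adjusted p = 1.4e-12). Tk1, thymidine kinase, fell by 2.32 ± 0.07 in NRF2 cells (edgeR adjusted p = 1.1e-14) and by 1.67 ± 0.07 in EV cells (edgeR adjusted p = 7.2e-13). With DMSO 2 of the 13 were higher in NRF2 than in EV cells and 3 lower. These counts were near the shares of all genes, 19.3% higher and 16.9% lower. The largest differences were those of Cdt1, a replication licensing factor (log2 -0.28, edgeR adjusted p = 0.012), and Pcna, the replication clamp (log2 0.28, edgeR adjusted p = 4.6e-05).

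The other cyclins and kinases of the cycle behaved alike: all 6 that could be tested of 8 fell in both lines and fell further in NRF2 cells by the interaction term. The S phase and mitotic cyclin Ccna2 fell by 1.79 ± 0.05 in NRF2 cells (edgeR adjusted p = 2.1e-15). The mitotic cyclin Ccnb2 fell by 1.79 ± 0.06 in NRF2 cells (edgeR adjusted p = 1.1e-14) and by 1.35 ± 0.06 in EV cells (edgeR adjusted p = 4.5e-13). Of the 13 pocket proteins and E2F factors, 11 fell and 2 rose in NRF2 cells, and 9 fell and 2 rose in EV cells, with a median log2 change of -0.66 and -0.57. E2f3, an activating E2F, fell by 1.52 ± 0.07 in NRF2 cells (edgeR adjusted p = 6.5e-13) and by 1.21 ± 0.07 in EV cells (edgeR adjusted p = 1.4e-11). The genes that rose were Rb1, the retinoblastoma protein itself (log2 1.01 in NRF2 and 0.81 in EV cells), and E2f2, another activating E2F (log2 0.33 in NRF2 and 0.72 in EV cells). Both were chosen for mention after their values were seen.

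Among 7 inhibitors of the kinases, 4 rose and 2 fell in NRF2 cells, and 3 rose and 2 fell in EV cells, so the number called, 6 of 7 and 5 of 7, was near the share of all genes called. Cdkn1a, a CIP/KIP inhibitor, rose 6.21-fold in NRF2 cells (log2 2.64 ± 0.09; edgeR adjusted p = 2.6e-14) and 10.56-fold in EV cells (log2 3.40 ± 0.11; edgeR adjusted p = 1.3e-14). With DMSO it was 2.24-fold higher in NRF2 than in EV cells (edgeR adjusted p = 1.0e-06). Cdkn2d, an INK4 inhibitor of CDK4 and CDK6, was higher with romidepsin by 2.72-fold in the NRF2 line (edgeR adjusted p = 5.6e-09) and by 2.51-fold in the EV line (edgeR adjusted p = 2.5e-08). Cdkn2b, another INK4 inhibitor, was 1.58-fold lower in NRF2 cells (edgeR adjusted p = 1.2e-09) and 1.87-fold lower in EV cells (edgeR adjusted p = 1.9e-11). Cdkn1c, named because its point lies far from the rest in the plot of G1/S genes, held 106 counts over the NRF2 and 28 over the EV libraries with romidepsin, against 0 and 1 with DMSO.

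Of 8 enzymes that activate or inhibit the kinases, 6 fell and 1 rose in each line, led in NRF2 cells by Pkmyt1, an inhibitory kinase (log2 -1.75 ± 0.08; edgeR adjusted p = 1.3e-12), and Cdc25a, an activating phosphatase (log2 -1.66 ± 0.06; edgeR adjusted p = 2.3e-14). Of 11 genes for cyclin turnover, 7 fell and 3 rose in NRF2 cells and 8 fell and 3 rose in EV cells, with a median log2 change of -0.43 and -0.38. Fbxo4, an F-box protein described as a ligase adaptor for cyclin D1, fell by 2.07 ± 0.12 in NRF2 cells (edgeR adjusted p = 2.8e-11) and by 1.48 ± 0.11 in EV cells (edgeR adjusted p = 1.3e-09). Cul1, the scaffold of SCF ligases, fell by 1.64 ± 0.05 and 1.25 ± 0.05 in NRF2 and EV cells (edgeR adjusted p = 1.0e-14 and 4.7e-13). The 3 that rose were Fbxo31 (log2 0.92 in NRF2 and 0.49 in EV cells), Fbxw7 (0.61 and 0.50) and Skp1 (0.53 and 0.53).

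**Figure D4:**
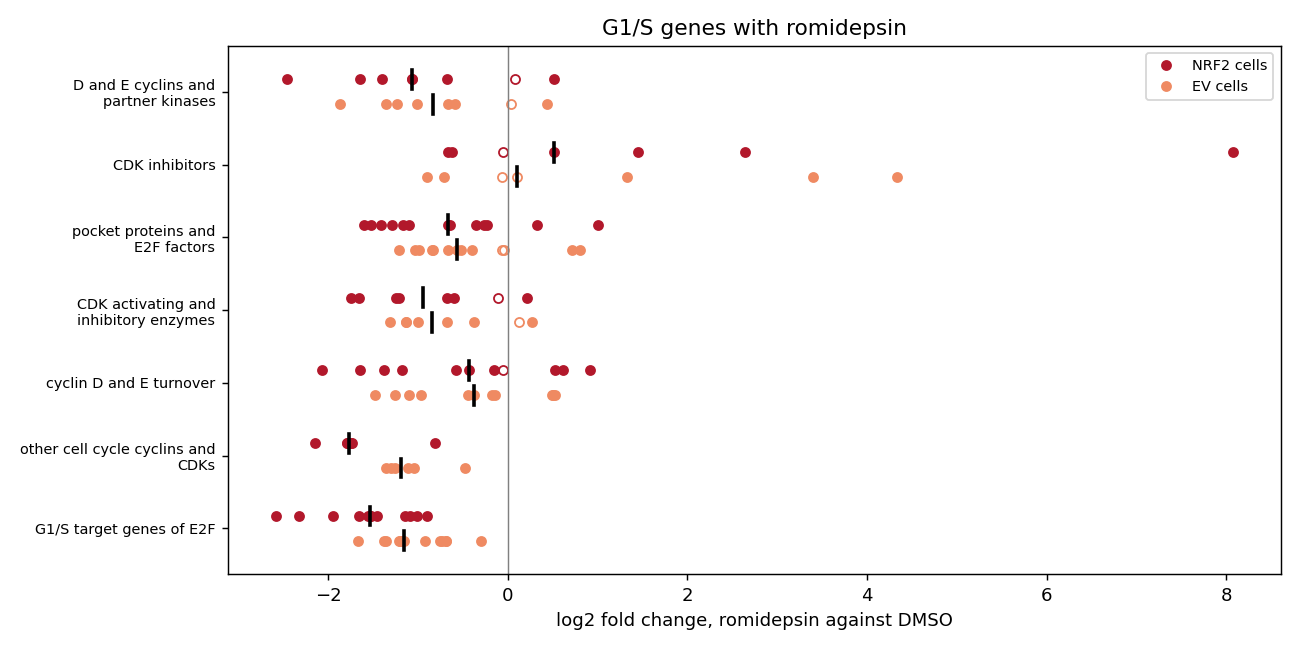
Log2 fold change with romidepsin of each tested gene of 7 lists, in NRF2 cells (dark red, upper of each pair) and EV cells (orange, lower); filled points passed the test (edgeR, adjusted p under 0.05), open points did not, and the black bar is the list's median. All points of the E2F target and other cyclin lists lie below 0, while the kinase inhibitors spread to both sides; the points at 8.07 and 4.33 are Cdkn1c, fitted values against groups with 0 and 1 counts.

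Some of these genes lie on top of others, and how strands were counted is not given in the sources used here. Of the 31-base words in its transcripts, Ccnd1 shared 22.3% with LTO1, Cdk4 19.5% mostly with Tspan31, Ccne2 15.6% with Ints8 and Ccnd3 7.95% with Bysl and other genes, in these cases chiefly with neighbours on the opposite strand. The share was 6.95% for Ccnd2, 5.19% for Cdk6, 1.15% for Cdk2 and 0.0753% for Ccne1. LTO1 rose with romidepsin, to 25.2 ± 0.619 CPM in NRF2 cells, against 15.2 ± 0.971 CPM with DMSO (SD, n = 3; log2 0.73; edgeR adjusted p = 6.7e-08). Tspan31 rose as well, with 115 ± 0.198 CPM in NRF2 cells with romidepsin against 64.8 ± 0.814 CPM with DMSO (log2 0.83; edgeR adjusted p = 2.7e-12), so both neighbours moved opposite to Ccnd1 and Cdk4, in EV cells too (log2 0.78 and 0.79). Ints8 fell with Ccne2, by 0.52 in NRF2 and by 0.44 in EV cells, and Bysl rose with Ccnd3, by a log2 value of 0.15 in NRF2 and 0.19 in EV cells.

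For each of the 8 genes, the closest profiles of centred log2 CPM over the 12 libraries were sought. The candidates were 9840 genes averaging 5 CPM or more, with genes under predicted or provisional names left out. For Ccnd1 the closest were Tns4 and Cdca7, at root mean square log2 differences of 0.0805 and 0.0957. For Ccnd2 they were Gars and Erf (0.0631 and 0.0725), for Ccnd3 Mrpl55 and Cs (0.0438 and 0.0449), and for Ccne1 Rangrf and Rasl11a (0.0650 and 0.0735). Ccne2 lay closest to Ncapg and Ercc6l (0.0876 and 0.0964), Cdk2 to Rexo4 and Opa1 (0.0470 and 0.0497), Cdk4 to Yap1 and Echdc3 (0.0520 and 0.0691), and Cdk6 to Ubr2 and Cul4a (0.0453 and 0.0472). The profiles of the 7 genes other than Ccne1 share the split between romidepsin and DMSO, which most genes tested had.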

How the data were processed

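Poly-A RNA was extracted with Trizol and sequenced from TruSeq libraries, per the labels' protocols. The submitters' processing notes name bcl2fastq 2.19, kallisto 0.44.0, DESeq2 and GRCm38. The deposited estimated counts per gene symbol had been rounded to whole numbers by the authors (100% of values); the second deposited table is a signal, these counts divided by a size factor per library, and served as an alternative. The strand setting and annotation release are not given in the sources used here.

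Genes kept by the edgeR filter (13502; minimum count 10) were tested in a fit of all 12 libraries with 4 group means (edgeR 4.0.16, quasi-likelihood, TMM, two-sided, 8 residual degrees of freedom), with Benjamini-Hochberg adjustment over all genes and a threshold of 0.05. SE is the absolute log2 fold change over the square root of F. The pipeline was tested on simulated data. Count ratios (0.5 added) were tested with exact permutations. Positions and lengths are from GENCODE M21, matched by symbol. No pair of replicates agreed within sampling noise. SDs give, and p-values rest on, the spread between libraries, which may be technical.

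The members and gene lists were chosen with earlier results of these data known, and some list members are not reported. Each list could contribute the 3 called genes that changed most, given an average of 1 CPM or more, to the names in the text. Alternatives were other scalings, filters and thresholds, DESeq2 1.42.0, limma 3.58.1, the compared groups alone, a replicate block, other lengths, and leaving out each library.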

Additional observations from a re-analysis of the deposited data

Results flagged for a closer look

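The romidepsin responses of 4 of the 8 genes differed between the lines by the interaction term of the edgeR fit. On the log2 scale, NRF2 minus EV cells, the difference was -0.74 for Ccne2 (adjusted p = 6.4e-04), -0.59 for Ccnd1 (adjusted p = 1.9e-05), -0.28 for Cdk4 (adjusted p = 0.014) and 0.18 for Ccnd2 (adjusted p = 0.045). Over the fits that each left out a library the values ranged from -0.85 to -0.67 for Ccne2, from -0.62 to -0.55 for Ccnd1 and from -0.36 to -0.24 for Cdk4, with every call kept, and from 0.13 to 0.20 for Ccnd2, with 11 of 12 calls lost.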

How the results depend on the processing

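The count of called genes among the 8 stayed within 1.5 times its value under the alternatives run, except with NRF2 against EV cells in DMSO, where scaling by library size alone called 5 in place of 3, and for the interaction, where a threshold of 0.01 called 2 in place of 4. Leaving out each library gave 7 called in both romidepsin comparisons, 3 to 4 for NRF2 against EV cells with DMSO, 5 to 7 with romidepsin and 3 to 4 for the interaction. Same-numbered libraries did not deviate together (18 pairs, correlations -0.12 to 0.06; 2 of 12 libraries correlated best with their own number). With the replicate number as a block the counts were 7 and 7 for romidepsin, 3 and 6 for NRF2 with DMSO and romidepsin, and 3 for the interaction, where Ccnd2 was no longer called (edgeR adjusted p = 0.076); without a filter on low counts that p was 0.17. With the longest protein-coding transcript as length, the Ccnd1 share of the D cyclins was 32%, 43.1%, 71% and 70.2% in NRF2 and EV cells with romidepsin and NRF2 and EV cells with DMSO, and 3, 2, 4 and 3 genes held their place. Signs turned, with no call, for Ccne1 (romidepsin in EV cells -0.02 to 0.12 over fits without 1 library; interaction -0.04 to 0.10, with -0.04, -0.02 and -0.02 in 3 fits that left out a library), for Cdk4 (NRF2 with DMSO, 0.01), and for Nfe2l2 (romidepsin in EV cells, 0.03 with upper-quartile and 0.04 with library-size scaling). Over the fits without 1 library, the NRF2 differences of the ratios ranged from -0.41 to -0.35 for Ccnd1 to Ccnd3, -0.17 to -0.10 for Ccnd2 to Ccnd3, -0.01 to 0.10 for Ccne1 to Ccne2 and -0.09 to 0.00 for Cdk4 to Cdk6; the cause was not tested. Depth limited Ccne2 most, with a smallest count of 186 in a library.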
